A study of Homo sapiens
Mus musculus with 17 samples.

Results

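Host collagen genes were taken as all rows of the mouse expression table whose symbol is Col, a number, the letter a and a number. They numbered 43 of 23337 mouse genes, and 30 of them, whose normalized count averaged 10 or more across the 17 tumours, are described here. A normalized count is a gene's read count divided by its library's size factor. The 30 comprised 10 of 11 fibrillar, 5 of 8 basement membrane and 15 of 24 other collagens. All tumours were xenografts of VM-CUB-1, 1 human bladder cancer cell line, grown in athymic nude mice (Hsd:Athymic Nude-Foxn1nu), which lack a functional thymus. Treatment lasted 7 days in all groups. The 4 vehicle tumours had received 0.5% methylcellulose and 0.1% Tween80, 4 tumours had 25 mg/kg of alpelisib, 5 had 40 mg/kg of nintedanib, and 4 had the combination of these doses. Alpelisib, also called BYL719, blocks the PI3K catalytic subunit alpha, and nintedanib blocks kinases of the VEGF, FGF and PDGF receptor families. The study asked how the drugs act together on xenografts it calls nintedanib-resistant. The sample titles name 3 nintedanib tumours as responders and 2 as non-responders, whereas the series description gives 2 and 3, and the titles were followed. Mouse ages and sexes are not given in the labels used here. Reads were mapped to the mouse genome (host) and separately to the human genome (tumour cells).

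Collagens are triple-helical matrix proteins. Fibrillar collagens, made mainly by fibroblasts, assemble into the cross-linked fibrils that give tumour stroma its tensile strength. Type IV collagen forms the sheet-like network of basement membranes, including those that endothelial cells and pericytes lay down around vessels, and types XV and XVIII sit at the border of that network. The remaining collagens decorate fibrils, form beaded filaments or anchoring fibrils, or span the cell membrane. In these bulk samples, fewer cells of a type and less RNA per cell cannot be told apart.

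Per library, between 2271764 and 7438823 reads were counted on mouse genes, with a median of 5084126, and between 7429753 and 25654879 on human genes. Together, the 30 collagens took between 1.43% and 4.95% of the mouse reads left after setting aside Rn45s and Lars2, a pair of genes that collect ribosomal RNA reads. Vehicle 3 stood apart from the other vehicle tumours. It had the fewest human reads of the 17 libraries and the highest share of mouse reads on Rn45s and Lars2, 72.92% (95% Wilson interval 72.88 to 72.96, counting error only), against 2.05% to 13.1% in the other vehicle libraries. Its summed fibrillar collagens were at 110635 normalized counts, against 35240 to 53659 in the other 3 vehicle tumours, and its summed Col4a1 and Col4a2 were at 13115, against 3938 to 4393. Combination 4 had 60.06%, alpelisib 3 had 44.1% and combination 1 had 42.11% of mouse reads on the ribosomal genes. The main results against vehicle are therefore also given without Vehicle 3, and the part that ribosomal reads play was not tested. Since its own collagen values were among those that set it apart, higher collagen changes without Vehicle 3 are partly built in. Whether each tumour had its own mouse is not given in the labels, and p-values therefore reflect the spread among these samples, which may be partly technical.

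No collagen passed an adjusted p of 0.05 (limma, Benjamini-Hochberg over 11831 mouse genes) in any of 7 comparisons, so every change below is a value and not a called change. The lowest adjusted p was 0.0902, for Col4a1 under the combination. Across all mouse genes, the share that passed was 0% for alpelisib, 0.152% for nintedanib and 0.778% for the combination, each against vehicle. At an unadjusted p under 0.05 there were 2 collagens under alpelisib (10.6% of all genes), 6 under nintedanib (8.47%) and 9 under the combination (16.5%). Under alpelisib 1 was higher (6.03% of all genes) and 1 lower (4.52%). Under nintedanib 1 was higher (4.88%) and 5 were lower (3.59%), and under the combination 6 were higher (9.67%) and 3 lower (6.87%). Both lower counts include Col6a4, whose direction is tied to the filter on low values, as given below. The count tests on recovered whole reads called 0 collagens with edgeR and with limma-voom in all 7 comparisons. DESeq2 called Col4a1 and Col4a2 under nintedanib and under the combination, and 0 in the other 5 comparisons. Over all mouse genes it called 93 under nintedanib and 473 under the combination, more than limma did.

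By class, basement membrane collagens had lower mean log2 values than in vehicle after nintedanib, alone or combined, while most fibrillar collagens had higher ones. Under nintedanib, 5 of 5 basement membrane collagens had a mean log2 value below vehicle, with a median log2 change of -0.76, while 9 of 10 fibrillar collagens were above it, with a median of 0.21. Under the combination, 5 of 5 basement membrane collagens were again below vehicle (median -0.62) and 8 of 10 fibrillar collagens above it (median 0.45). Among all mouse genes, 51.9% were above vehicle under nintedanib and 48.2% under the combination, with medians of 0.02 and -0.02. The nintedanib and combination groups share their vehicle controls. Without Vehicle 3 the basement membrane medians were -0.47 (5 of 5 below) and -0.29 (4 of 5 below), and the fibrillar medians were 0.52 and 0.75.

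**Figure D1:**
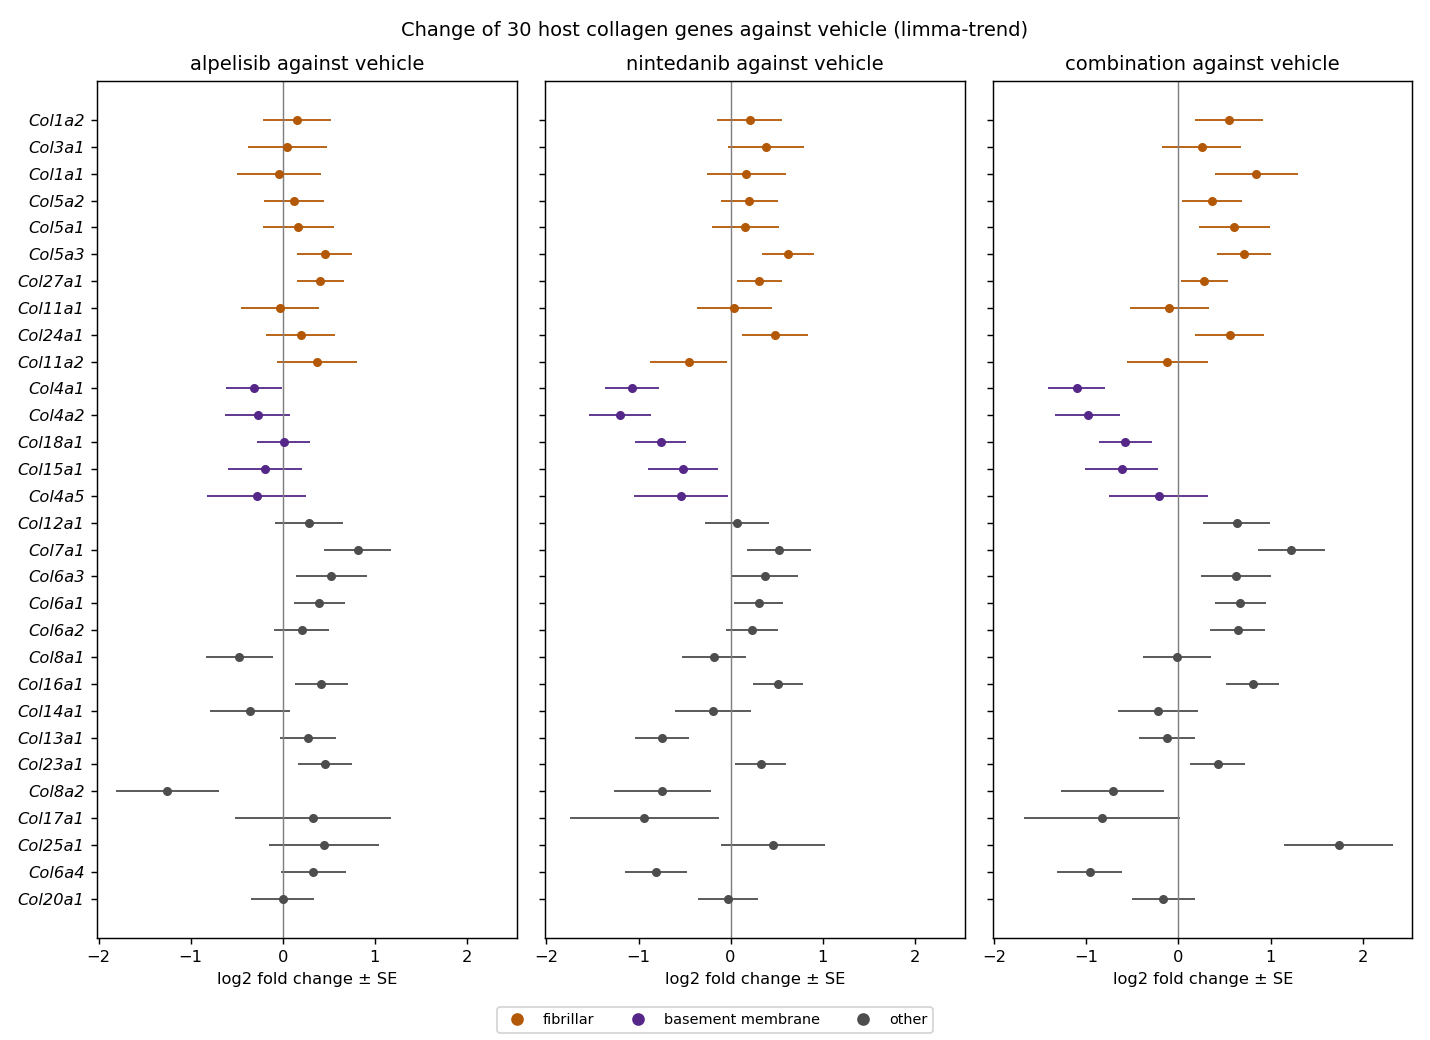
Log2 fold change ± SE (limma) of 30 host collagen genes against vehicle, 1 panel per treatment, coloured by class. The 5 basement membrane genes lie left of 0 under nintedanib and the combination, and Col25a1 and Col7a1 lie furthest right under the combination, at 1.74 and 1.23.

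Col4a1 and Col4a2 encode the chains that build the common type IV collagen network, and their genes lie head to head. Col4a1 stood at 2894, 2602, 7626 and 2751 normalized counts in vehicle tumours 1 to 4 and at 2000, 3076, 3247 and 3349 in alpelisib tumours 1 to 4. In the nintedanib non-responders Col4a1 was at 1608 and 1198, in the responders at 1506, 2448 and 1897, and in the combination tumours at 1907, 1631, 1832 and 1290. All 5 nintedanib and all 4 combination tumours were below every vehicle tumour, whereas the alpelisib tumours overlapped with vehicle. The means were 3969 ± 2442 (SD, n = 4) for vehicle, 2918 ± 622 (n = 4) for alpelisib, 1731 ± 472 (n = 5) for nintedanib and 1665 ± 276 (n = 4) for the combination. The log2 change of Col4a1 was -1.08 ± 0.29 (SE; adjusted p = 0.236, limma) under nintedanib and -1.11 ± 0.31 (adjusted p = 0.0902, limma) under the combination. Without Vehicle 3 these were -0.71 (adjusted p = 0.44, limma) and -0.74 (adjusted p = 0.143, limma). With DESeq2, Col4a1 passed in both comparisons, at -1.21 (adjusted p = 0.0132) and -1.25 (adjusted p = 0.00782).

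Col4a2 followed its partner. It was at 1498, 1336, 5488 and 1443 normalized counts in vehicle and 1114, 1680, 1973 and 2027 in alpelisib tumours. Nintedanib non-responders had 792 and 642, responders 762, 1268 and 1008, and combination tumours 1018, 1040, 1087 and 895. Again no nintedanib or combination tumour reached the lowest vehicle tumour, and Vehicle 3 was more than 3 times any other vehicle value. The log2 change of Col4a2 was -1.20 ± 0.34 under nintedanib (adjusted p = 0.258, limma) and -0.99 ± 0.35 under the combination (adjusted p = 0.166, limma), and -0.71 and -0.50 without Vehicle 3. With DESeq2, Col4a2 passed at -1.47 (adjusted p = 0.0107) and -1.27 (adjusted p = 0.0289). The combination tumours were also below all alpelisib tumours for Col4a1 (-0.80 ± 0.31, adjusted p = 0.745) and for Col4a2 (-0.71 ± 0.35, adjusted p = 0.823, limma).

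Col18a1 encodes the collagen whose end fragment is endostatin. Vehicle tumours had 555, 611, 1320 and 621 normalized counts of Col18a1, and alpelisib tumours had 428, 725, 849 and 1097. Non-responders had 413 and 299, responders 486, 572 and 421, and combination tumours 487, 492, 454 and 512. All 4 combination tumours were below all vehicle tumours, while nintedanib responder 2 lay above the lowest vehicle tumour. Its log2 change was -0.76 ± 0.27 under nintedanib (adjusted p = 0.467) and -0.58 ± 0.29 under the combination (adjusted p = 0.327, limma), or -0.47 and -0.29 without Vehicle 3. Col15a1 had -0.52 ± 0.38 under nintedanib and -0.62 ± 0.40 under the combination, or -0.06 and -0.16 without Vehicle 3. Col4a5, with 49.2 normalized counts on average, had -0.53 ± 0.51 and -0.21 ± 0.54, or -0.13 and 0.19 without Vehicle 3. Both overlapped with vehicle in every comparison.

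**Figure D2:**
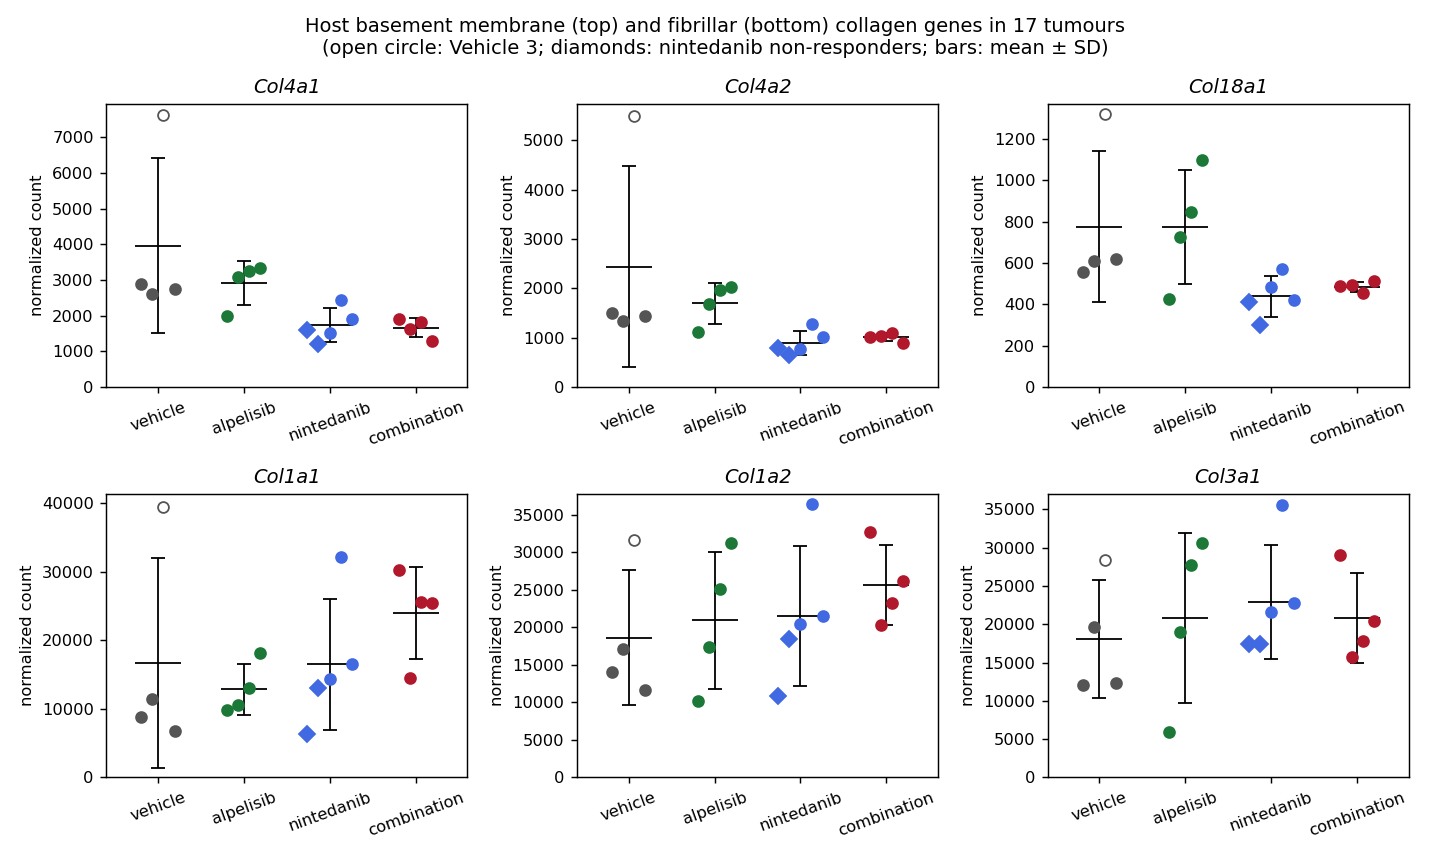
Normalized counts of 3 basement membrane genes (top) and 3 fibrillar genes (bottom) in each of 17 tumours, with group mean ± SD; the open circle is Vehicle 3 and diamonds are nintedanib non-responders. Nintedanib and combination tumours sit below all vehicle tumours for Col4a1 and Col4a2. For Col1a1, Col1a2 and Col3a1, vehicle, alpelisib, nintedanib and combination tumours overlap.

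Counting the members whose groups did not overlap, 3 were lower in all nintedanib than in all vehicle tumours (Col4a1, Col4a2 and Col6a4), where 1.52% of all genes were, and 0 were higher (0.93%). In the combination 4 were lower (those 3 and Col18a1), where 4.74% of all genes were, and 0 were higher (4.89% of all genes). Against alpelisib, 3 were lower in the combination (Col4a1, Col4a2 and Col6a4; 2.14% of all genes) and 0 were higher (1.62%). Alpelisib against vehicle gave 0 in either direction (4.18% of all genes were higher and 3.03% lower). Without Vehicle 3, the same 3 stayed lower under nintedanib (2.35%) and the same 4 under the combination (7.34%). Vehicle 3 was the highest vehicle tumour for each of these genes, so leaving it out could not create overlap and tests nothing here. Col6a4 reached the minimum mean through its vehicle and alpelisib tumours, as given below.

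The balance between the classes was also read within each tumour, as Col4a1 plus Col4a2 per 100 normalized counts of fibrillar collagen, a ratio that no library scaling alters. Read counts also grow with transcript length, so the ratio compares tumours and not genes. It was 11.2, 7.34, 11.9 and 11.9 in vehicle tumours (10.6 ± 2.18, SD, n = 4) and 10.4, 9.01, 7.06 and 5.99 in alpelisib tumours (8.12 ± 1.98, n = 4). Non-responders had 6.16 and 3.33, responders 3.55, 3.24 and 4.28 (all 5, 4.11 ± 1.21), and combination tumours 2.83, 4.70, 3.94 and 2.74 (3.55 ± 0.94, n = 4). Every nintedanib and combination tumour was below every vehicle tumour, and in this ratio Vehicle 3 lay beside vehicle tumours 1 and 4. Between 1522 and 9199 type IV reads per library stood behind these values. The genes of the ratio had been chosen with the pattern in view, so it carries no test.

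**Figure D3:**
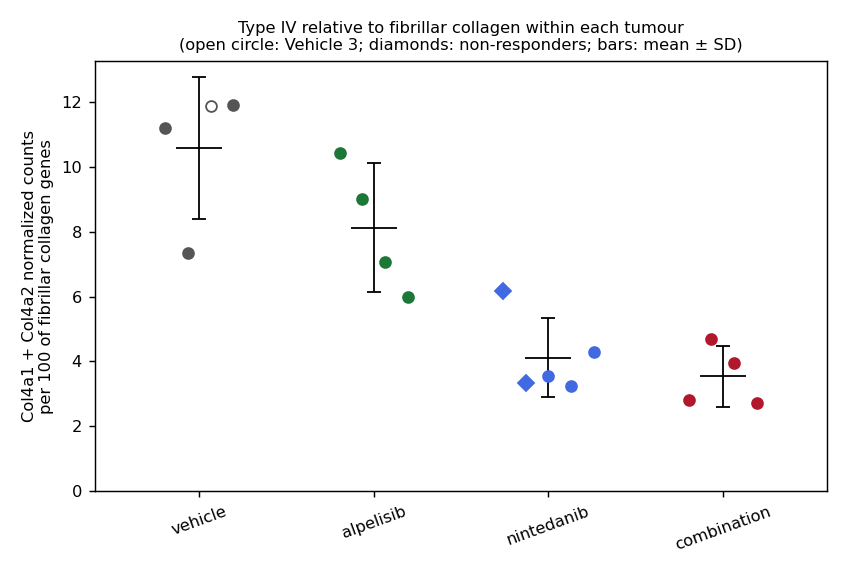
Col4a1 plus Col4a2 normalized counts per 100 of fibrillar collagen genes in each of 17 tumours, with group mean ± SD; the open circle is Vehicle 3 and diamonds are nintedanib non-responders. Vehicle tumours lie between 7.34 and 11.9, nintedanib tumours between 3.24 and 6.16 and combination tumours between 2.74 and 4.70.

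Endothelial markers were followed beside the type IV genes. Of 10 such markers, including Pecam1 and Cdh5, 10 had a mean log2 value below vehicle under nintedanib (median log2 change -1.08) and 10 under the combination (median -1.06). Their summed level ran from 2842 to 4501 normalized counts in vehicle, 1963 to 3608 in alpelisib, 1225 to 2243 in nintedanib and 1311 to 1983 in combination tumours, with none of the 10 at 0 in any group. Cdh5, the endothelial cadherin, fell by 1.58 ± 0.35 (adjusted p = 0.0415) and Pecam1 by 1.19 ± 0.27 (adjusted p = 0.0433, limma) under the combination. Without Vehicle 3 both had an adjusted p of 0.0825, at -1.27 and -1.07, and the medians were -0.99 and -1.08. Leaving out any of Vehicle 1, Vehicle 4 and combination tumours 1, 3 and 4 also ended both calls, as leaving out combination 2 did for Cdh5, and neither passed with no filter or with only the compared groups fitted. With DESeq2, 5 of the 10 were called lower under nintedanib and 6 under the combination. With edgeR 1 was called lower in each (Cldn5 and Cdh5), and with limma-voom 0 and 2 (Cdh5 and Pecam1). For 10 pericyte and smooth muscle markers the medians were -0.32 and -0.59 (-0.22 and -0.54 without Vehicle 3), and their sums overlapped (3113 to 6103 in vehicle, 2746 to 5128 in nintedanib and 3601 to 5097 in combination tumours). DESeq2 called 1 of these 10, Mcam, lower in both comparisons, while edgeR and limma-voom called 0. Mcam ran from 672 to 1012 in vehicle, 271 to 551 in nintedanib and 192 to 472 in combination tumours. Mouse reads were 71.8% of its mouse and human reads. Pericytes also make type IV collagen. The part of either cell type in the collagen values was not tested.

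Type IV collagen shares basement membranes with laminins, nidogens and proteoglycans. Of 12 tested genes of these partners, 10 were below vehicle under nintedanib (median -0.61) and 9 under the combination (median -0.38), with 0 called (limma, edgeR and limma-voom) and 4 and 3 at an unadjusted p under 0.05, all lower. DESeq2 called 1 of them, Nid2, in both comparisons. Nid2, a nidogen that links laminin to type IV collagen, averaged 412 ± 361 normalized counts in vehicle (n = 4), 88.3 ± 35.3 in nintedanib (n = 5) and 96.7 ± 19.6 in combination tumours (n = 4). Its log2 change was -1.97 ± 0.43 (adjusted p = 0.0953) and -1.76 ± 0.46 (adjusted p = 0.0741, limma), and neither treated group overlapped with vehicle (178 to 946). Nid2 passed with DESeq2 at -2.23 (adjusted p = 0.000253) and -2.08 (adjusted p = 0.00156), and under the combination with limma after total scaling (adjusted p = 0.0253). Without Vehicle 3 it had -1.45 and -1.24 (adjusted p = 0.228 and 0.127, limma). Agrn, which encodes agrin, had -0.60 ± 0.24 and -0.61 ± 0.26 (-0.37 and -0.38 without Vehicle 3), but mouse reads were only 4.81% of its mouse and human reads. Without Vehicle 3 the medians of the partner genes were -0.25 and -0.003, and 9 and 6 of 12 were below vehicle.

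Fibrillar type I collagen consists of chains from Col1a1 and Col1a2. Col1a1 was at 8851, 11512, 39462 and 6784 normalized counts in vehicle and 9792, 10582, 13038 and 18096 in alpelisib tumours. In non-responders it was at 6404 and 13077, in responders at 14342, 32129 and 16531, and in combination tumours at 30294, 14496, 25565 and 25480. Vehicle 3 was the highest of all 17, and each combination tumour exceeded the other 3 vehicle tumours. The log2 change of Col1a1 under the combination was 0.85 ± 0.46 (adjusted p = 0.369), and 1.39 without Vehicle 3 (adjusted p = 0.0825, limma). Under alpelisib it was -0.04 ± 0.46, or 0.50 without Vehicle 3, and under nintedanib 0.17 ± 0.43, or 0.71 without Vehicle 3. The sign under alpelisib thus turned without that library, and it also turned without alpelisib 1 (0.078) or alpelisib 2 (0.041). Under nintedanib the sign also turned, to -0.14 with edgeR and -0.11 with DESeq2.

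Col1a2 had 14078, 17075, 31658 and 11696 normalized counts in vehicle and 10150, 17430, 25053 and 31201 in alpelisib tumours. It had 10793 and 18454 in non-responders, 20432, 36431 and 21536 in responders, and 32754, 20357, 23246 and 26223 in combination tumours. Vehicle, alpelisib, nintedanib and combination tumours overlapped, while all responders were above both non-responders. The log2 change of Col1a2 under the combination was 0.55 ± 0.37 (adjusted p = 0.483), or 0.84 without Vehicle 3 (adjusted p = 0.286, limma). Type III collagen, from Col3a1, forms fibrils together with type I. Vehicle tumours had 12041, 19621, 28428 and 12296 normalized counts of Col3a1, and alpelisib tumours had 5903, 18993, 27683 and 30656. Non-responders had 17356 and 17414, responders 21656, 35512 and 22805, and combination tumours 29073, 15726, 17838 and 20413. For Col3a1 too, vehicle, alpelisib, nintedanib and combination tumours overlapped, while all responders were above both non-responders. Alpelisib tumour 1 was the lowest of all, and the change under the combination was 0.25 ± 0.43 (adjusted p = 0.802), or 0.50 without Vehicle 3 (limma). That sign turned to -0.036 when libraries were scaled by their total without the ribosomal genes, a scaling that moved the median of all genes to -0.30 in that comparison.

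Type V collagen regulates the diameter of type I fibrils, and its Col5a3 chain had the smallest unadjusted p of the fibrillar genes. Col5a3 was at 442, 375, 641 and 259 normalized counts in vehicle and 383, 498, 713 and 719 in alpelisib tumours. It was at 377 and 545 in non-responders, 937, 864 and 592 in responders and 936, 559, 493 and 768 in combination tumours. Each combination tumour exceeded vehicle tumours 1, 2 and 4 but not, in every case, Vehicle 3. The log2 change was 0.63 ± 0.28 under nintedanib (adjusted p = 0.569) and 0.71 ± 0.30 under the combination (adjusted p = 0.234, limma), or 0.84 and 0.93 without Vehicle 3. Col27a1, a collagen of cartilage and other developing tissue, had 131, 173, 135 and 123 normalized counts in vehicle and 168, 184, 185 and 206 in alpelisib tumours. It had 152 and 160 in non-responders, 160, 156 and 258 in responders and 213, 261, 101 and 147 in combination tumours. Alpelisib and vehicle tumours overlapped only through Vehicle 2 and alpelisib 1, and the log2 change was 0.41 ± 0.26 (adjusted p = 0.538, limma), or 0.40 without Vehicle 3. The remaining fibrillar genes under the combination ranged from -0.12 ± 0.44 for Col11a2 to 0.61 ± 0.38 for Col5a1, which had -0.21 and 0.97 without Vehicle 3.

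Fibroblast markers were followed beside the fibrillar genes. Of 9 markers, 9 were above vehicle under nintedanib (median 0.55) and 7 under the combination (median 0.72), with 0 called by limma, edgeR and limma-voom and 1 (Thy1, higher under the combination) by DESeq2. Without Vehicle 3, 9 of 9 were above vehicle in both, with medians of 0.58 and 0.68. Their summed level was 2808 to 4115 normalized counts in vehicle, 2025 to 5799 in alpelisib, 3329 to 6720 in nintedanib and 4046 to 5704 in combination tumours, with none at 0 in any group. Dcn and Lum stand in both that list and the list of fibril-associated genes. The part of fibroblast number in the fibrillar values was not tested.

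Among the other collagens, the type VI chains Col6a1, Col6a2 and Col6a3 build beaded filaments that link cells to fibrils. Col6a3 was at 1349, 1445, 5093 and 1154 normalized counts in vehicle and 2140, 2189, 3229 and 3293 in alpelisib tumours. It was at 1211 and 2161 in non-responders, 2932, 3353 and 2996 in responders and 4474, 2651, 2004 and 2704 in combination tumours. Vehicle 3 was the highest of the 17, and the other vehicle tumours were below all alpelisib and all combination tumours. The log2 change of Col6a3 was 0.62 ± 0.38 under the combination (adjusted p = 0.434), or 1.11 without Vehicle 3 (adjusted p = 0.071, limma). Col6a1 had 0.67 ± 0.28 (adjusted p = 0.233) and Col6a2 0.64 ± 0.30 (adjusted p = 0.289, limma), or 0.90 and 0.92 without Vehicle 3. Col6a4, a further type VI chain, went the other way at a low level. It was at 16.5, 13.3, 29.9 and 16.4 in vehicle, 18.7, 34.1, 21.2 and 21.0 in alpelisib, 9.90 and 7.26 in non-responder, 8.81, 12.0 and 12.5 in responder and 5.57, 11.1, 8.61 and 11.2 in combination tumours. All nintedanib and combination tumours lay below all vehicle and alpelisib tumours. The mean of Col6a4 was 19.0 in vehicle and 23.8 in alpelisib tumours, against 10.1 in nintedanib and 9.12 in combination tumours. Col6a4 thus passed the minimum mean of 10 through the groups where it was high, and its direction is tied to that filter. Its log2 change was -0.81 ± 0.33 under nintedanib (adjusted p = 0.561), -0.96 ± 0.35 under the combination (adjusted p = 0.174) and -1.30 ± 0.35 for the combination against alpelisib (adjusted p = 0.454, limma). Without Vehicle 3 the changes against vehicle were -0.58 and -0.74.

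Col12a1 and Col16a1 encode collagens that attach to the surface of fibrils. Col12a1 had 3159, 3961, 11978 and 3985 normalized counts in vehicle and 4582, 4926, 7085 and 8288 in alpelisib tumours. It had 3804 and 4684 in non-responders, 4536, 8098 and 5747 in responders and 11914, 5731, 6472 and 7783 in combination tumours. Apart from Vehicle 3, vehicle tumours were below all alpelisib and combination tumours, and the log2 change under the combination was 0.63 ± 0.37 (adjusted p = 0.405), or 1.06 without Vehicle 3 (adjusted p = 0.0911, limma). Col16a1 had 353, 453, 799 and 411 in vehicle and 489, 483, 742 and 962 in alpelisib tumours. It had 421 and 601 in non-responders, 972, 857 and 711 in responders and 1042, 707, 616 and 1089 in combination tumours. Here too the combination tumours exceeded vehicle tumours 1, 2 and 4, and the log2 change was 0.81 ± 0.29 (adjusted p = 0.165), or 1.05 without Vehicle 3 (adjusted p = 0.0825, limma).

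Col7a1 encodes the anchoring fibril collagen that fastens stratified epithelia to the stroma beneath. It was at 1490, 1446, 4276 and 1470 normalized counts in vehicle and 3805, 2992, 2769 and 4151 in alpelisib tumours. Non-responders had 1367 and 3036, responders 5365, 2166 and 3376, and combination tumours 4669, 5338, 3227 and 5071. Vehicle tumours 1, 2 and 4 lay close together, below every alpelisib and combination tumour, and Vehicle 3 was among the treated tumours. The log2 change of Col7a1 was 0.82 ± 0.36 under alpelisib (adjusted p = 0.456), 0.53 ± 0.35 under nintedanib (adjusted p = 0.587) and 1.23 ± 0.36 under the combination (adjusted p = 0.106, limma). Without Vehicle 3 Col7a1 passed under the combination, at 1.61 (adjusted p = 0.0254, limma), and had 1.20 under alpelisib and 0.91 under nintedanib. Mouse reads were 23.2% of the mouse and human reads of the gene (12.7% to 39.5% by tumour). The 8 keratinocyte and tumour carry-over markers, keratins among them, summed to 23011 to 47286 normalized counts in vehicle, 61756 to 111937 in alpelisib, 39750 to 65438 in nintedanib and 50510 to 173618 in combination tumours. Krt14 alone made up 71.6% to 91.0% of that sum by library. Of the 8, 6 were above vehicle and 2 below under alpelisib (median log2 change 1.04, or 0.81 without Vehicle 3), and 5 were above and 3 below under the combination (0.66, or 1.09). Mouse reads of Krt14 were 23.7% of its mouse and human reads (22.4% to 27.3% by tumour). Krt14 rose by 1.69 ± 0.37 under the combination (adjusted p = 0.0368), or 1.79 without Vehicle 3 (adjusted p = 0.0429, limma). That call ended, with adjusted p between 0.0686 and 0.117, on leaving out any of Vehicle 1, 2 and 4 and combination 2, 3 and 4, and it ended with no filter (adjusted p = 0.395). With edgeR, limma-voom and DESeq2, Krt14 was called under the combination. The part of skin or tumour-cell reads in the Col7a1 and Krt14 values was not tested.

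Col25a1, a membrane-spanning collagen, was low and variable. It was at 4.13, 8.89, 59.7 and 19.6 normalized counts in vehicle and 28.0, 39.3, 11.8 and 13.8 in alpelisib tumours. Non-responders had 4.95 and 14.5, responders 46.7, 24.7 and 43.7, and combination tumours 76.2, 42.2, 65.2 and 34.9. The combination tumours were above vehicle tumours 1, 2 and 4, and Vehicle 3 lay within their range. The log2 change was 1.74 ± 0.59 (adjusted p = 0.147), and without Vehicle 3 Col25a1 passed at 2.39 (adjusted p = 0.0424, limma). Col8a2, of the short-chain type VIII collagen of vessel walls and cornea, had -1.25 ± 0.56 under alpelisib (adjusted p = 0.456), and Col13a1, another membrane-spanning collagen, had -0.75 ± 0.29 under nintedanib (adjusted p = 0.541, limma), or -1.45 and -0.63 without Vehicle 3. Over all 15 other collagens the median log2 change was 0.33 under alpelisib, 0.07 under nintedanib and 0.43 under the combination, or 0.56, 0.42 and 0.52 without Vehicle 3.

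Most collagens were higher relative to vehicle once Vehicle 3 was left out. Vehicle 3 had been set apart partly by its high summed collagens, so leaving it out had to raise many of these changes. The counts of higher collagens and the calls that follow are therefore tied to that choice and test nothing. Under the combination 2 of 30 then passed (Col7a1 and Col25a1, limma), where 0.702% of all genes did, and 13 were higher at an unadjusted p under 0.05 (7.7% of all genes). Without overlap, 12 were then higher in all combination than in the other vehicle tumours (7.51% of all genes): Col1a1, Col1a2, Col5a1, Col5a2, Col5a3, Col6a1, Col6a2, Col6a3, Col7a1, Col12a1, Col16a1 and Col25a1. Under nintedanib 0 passed (0.101% of all genes), 7 were higher at an unadjusted p under 0.05 (2.98%) and 2 lower (2.59%), and 0 were higher without overlap (1.9%). Under alpelisib 0 passed (limma; 0% of all genes), 7 were higher (3.88%) and 1 lower (2.69%) at an unadjusted p under 0.05, and 5 were higher without overlap (5.65%). The basement membrane median under alpelisib went from -0.27 (4 of 5 below vehicle) to 0.22 (5 of 5 above), so its sign rested on Vehicle 3. With all libraries 21 of 30 collagens were above vehicle under alpelisib, beside 50.9% of all genes. The fibrillar median under alpelisib, 0.17 with all libraries and 0.44 without Vehicle 3, was -0.06 without alpelisib 4. Under total scaling it was -0.04, where the median of all genes was -0.19, against 0.01 in the main fit.

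**Figure D4:**
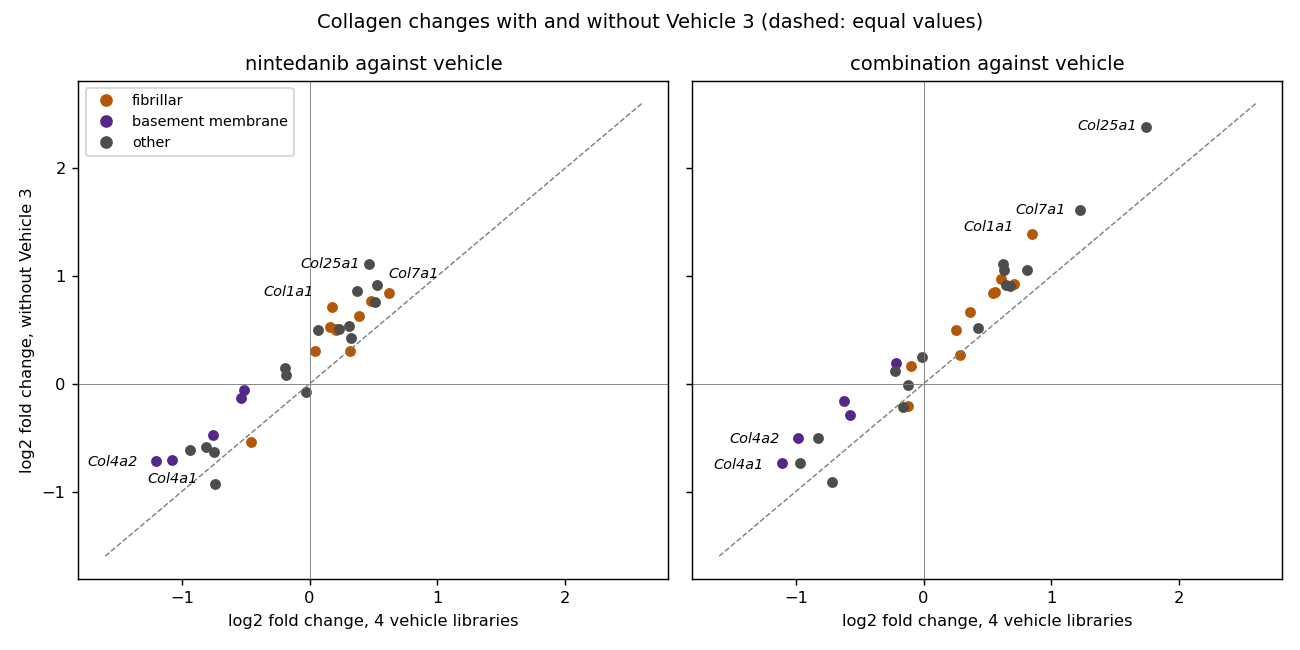
Log2 fold change of 30 host collagen genes against vehicle with all 4 vehicle libraries (horizontal) and without Vehicle 3 (vertical), for nintedanib and the combination; the dashed line marks equal values. Most genes lie above the line: under the combination Col1a1 goes from 0.85 to 1.39, while Col4a1 goes from -1.11 to -0.74.

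Set against each drug alone, the combination gave 0 called collagens with limma (0.00845% of all genes against alpelisib and 0% against nintedanib). At an unadjusted p under 0.05 there were 3 against alpelisib (6.18% of all genes): Col4a1 and Col6a4 lower (3.65%) and Col25a1 higher (2.53%). Col6a4 reached the minimum mean through its vehicle and alpelisib tumours, so its direction is tied to that filter. There were 2 against nintedanib (7.02% of all genes), Col25a1 at 1.28 ± 0.56 and Col13a1 at 0.62 ± 0.29, both higher in the combination (2.82%, and 4.19% of all genes were lower). None was free of overlap with nintedanib in either direction (0.82% of all genes higher and 1.41% lower). In 18 of 30 collagens the combination was above alpelisib (51.6% of all genes), and in 22 of 30 it was above nintedanib (50.6%), or 14 of 30 under total scaling. That scaling moved the median of all genes against nintedanib to -0.19, where the median of the 30 collagens was -0.02. Basement membrane collagens stood lower in the combination than under alpelisib in 4 of 5 genes (median -0.59) and differed little from nintedanib (median 0.18, or -0.02 under total scaling). The departure from additivity, the log2 effect of the combination beyond the summed effects of its drugs, gave 0 called and 0 at an unadjusted p under 0.05 (0% and 4.83% of all genes, 2.1% above and 2.72% below 0), with edgeR, limma-voom and DESeq2 also at 0 and 0. It was above 0 in 16 of 30 collagens (median 0.06) and in 46.9% of all genes, but in 7 of 30 (median -0.14) without Vehicle 3, which left 2 of 10 fibrillar genes above 0. Its basement membrane median was 0.28 with 5 of 5 above 0, and -0.09 with 4 of 5 below 0 without Vehicle 3.

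Within the nintedanib group, collagens were mostly higher in the 3 tumours titled responders than in the 2 titled non-responders. In 26 of 30 genes the responder mean log2 value was above the non-responder one (45.9% of all genes were). The median log2 difference was 0.55 against -0.03 for all genes. None passed with limma (adjusted p = 1 for each, and 0% of all genes passed) or with edgeR, limma-voom or DESeq2. At an unadjusted p under 0.05, 5 were higher and 0 lower (1.28% and 0.769% of all genes). They were Col23a1, a membrane-spanning collagen (1.32 ± 0.38), Col6a2 (1.07 ± 0.39), Col25a1 (1.98 ± 0.77), Col6a1 (0.91 ± 0.36) and the fibrillar Col24a1 (1.07 ± 0.49). Without overlap, 12 were higher (7.65% of all genes) and 1 lower, Col20a1 (8.01%). Both non-responders had higher summed adipocyte markers, 3266 and 3540 normalized counts against 219 to 714 in responders. Summed muscle markers were at 33220 in non-responder 1 but at 782 in non-responder 2, below the responders (1030 to 1451). The part of neighbouring tissue was not tested, and the conflict over which tumours responded bears on every value of this comparison.

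Reads of each member were set beside those of its counterpart in the human table. Of 29 members with a human row, 23 had more mouse than human reads over the 17 libraries, and 15 had at least 95% mouse reads. Among them Col4a2 was at 99.9%, Col15a1 at 99.9%, Col18a1 at 99.5%, Col5a3 at 99.1%, Col1a2 at 98.9%, Col4a1 at 98.6% and Col3a1 at 98.4%. Col1a1 stood at 84.2% and Col16a1 at 63.6%. In 6 members human reads prevailed: Col12a1 at 39.4% mouse, Col7a1 at 23.2%, Col27a1 at 15.5%, Col11a2 at 14.4%, Col4a5 at 4.05% and the hemidesmosome collagen Col17a1 at 0.63%. How many of their mouse reads were of human origin was not tested. The type IV genes in which nintedanib and vehicle tumours did not overlap, Col4a1 and Col4a2, were almost wholly mouse.

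**Figure D5:**
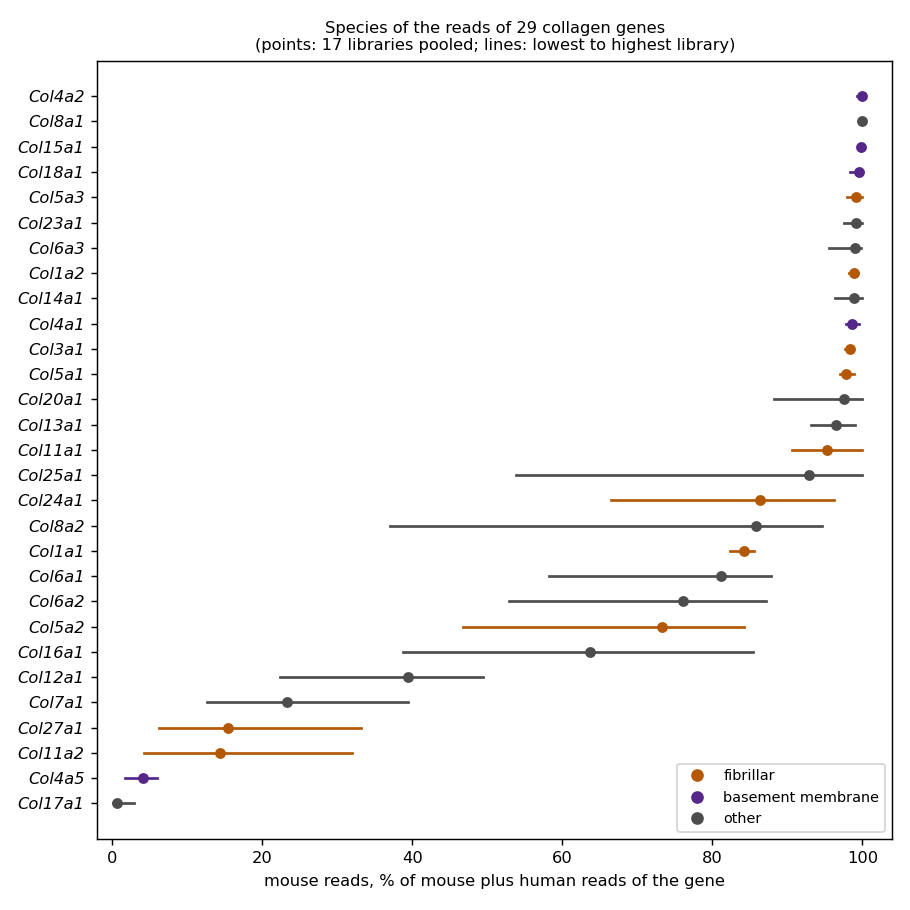
Mouse reads as a percentage of mouse plus human reads of the same gene, for 29 host collagen genes; points pool 17 libraries and lines run from the lowest to the highest library. Col4a1 and Col4a2 sit at 98.6% and 99.9%, and Col17a1 at 0.63%.

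Genes that modify, process and bind collagen were taken from lists. In procollagen modification and folding, 1 of 18 tested genes rose under the combination and 0 fell, with 0 passing under either drug alone (limma; 1 at an unadjusted p under 0.05 under nintedanib and 2 under alpelisib); the median log2 change was 0.41 in the combination and 0.07 under nintedanib, or 0.36 and 0.05 without Vehicle 3. DESeq2 called Ppib as well, higher under the combination and under alpelisib. The gene that rose with limma was P4ha2, a subunit of the prolyl hydroxylase that stabilises the triple helix. It averaged 144 ± 34.1 normalized counts in vehicle, 175 ± 13.3 in alpelisib, 224 ± 67.4 in nintedanib and 302 ± 33.8 in combination tumours. Combination tumours (261 to 343) did not overlap with vehicle (102 to 181), and the log2 change of P4ha2 was 1.09 ± 0.21 (adjusted p = 0.023), or 1.21 without Vehicle 3 (adjusted p = 0.0144, limma). Leaving out any of Vehicle 1, 2 and 4 and combination 3 and 4 took the adjusted p to between 0.0516 and 0.0725, total scaling took it to 0.054 and fitting only the compared groups to 0.0832. With edgeR, limma-voom and DESeq2, P4ha2 was called under the combination. Mouse reads were only 16.0% of its mouse and human reads. Plod2, a lysyl hydroxylase of collagen, had -0.74 ± 0.39 under nintedanib (adjusted p = 0.587, limma), or -0.54 without Vehicle 3, and mouse reads were 7.96% of both.

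In propeptide processing and cross-linking, 0 of 11 passed in any treatment (limma, edgeR and limma-voom; with DESeq2 Pcolce passed, higher under the combination), 5 were higher at an unadjusted p under 0.05 in the combination, and the median was 0.67 there and 0.35 under nintedanib (0.74 and 0.48 without Vehicle 3). Bmp1, the procollagen C-proteinase, had 0.68 ± 0.24 under the combination (adjusted p = 0.151), and Loxl1, a cross-linking oxidase, had 0.76 ± 0.31 (adjusted p = 0.218, limma), with no overlap with vehicle for either. Without Vehicle 3 they had 0.74 and 0.78. Mouse reads were 57.3% of both for Bmp1 and 85.2% for Loxl1. The 14 fibril-associated genes had medians of 0.19 under nintedanib and 0.23 under the combination (0.30 and 0.36 without Vehicle 3), with 0 passing by any of the 4 tools and 0 and 1 at an unadjusted p under 0.05. Tnxb, or tenascin X, had 1.06 ± 0.63 and Dcn, or decorin, 0.63 ± 0.42 under nintedanib, or 1.99 and 0.72 without Vehicle 3.

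Of 7 collagen receptors, 0 passed (limma; 0 at an unadjusted p under 0.05 under nintedanib and 1 under the combination), and 6 and 5 were below vehicle (medians -0.41 and -0.26, or -0.20 and 0.09 without Vehicle 3). Lair1, an inhibitory collagen receptor of immune cells, was at -0.89 ± 0.26 under alpelisib (adjusted p = 0.277), -0.46 ± 0.24 under nintedanib (adjusted p = 0.587) and -1.02 ± 0.26 under the combination (adjusted p = 0.07, limma). Lair1 passed under the combination with DESeq2 (-1.01, adjusted p = 0.0122) and with limma after total scaling (-1.31, adjusted p = 0.0128), and without Vehicle 3 the 3 changes were -0.86, -0.43 and -0.99. Its alpelisib tumours (117 to 196 normalized counts) and combination tumours (125 to 185) lay below all vehicle tumours (244 to 333). Ddr1, a receptor tyrosine kinase for collagen, had -0.62 ± 0.36 under nintedanib, or -0.61 without Vehicle 3, but mouse reads were only 3.07% of both. The 9 genes of the TGF-beta axis, a main inducer of fibrillar collagen, had medians of -0.03 under nintedanib and 0.08 under the combination (0.0025 and 0.33 without Vehicle 3), with 0 passing by any of the 4 tools and 1 at an unadjusted p under 0.05 in each. Tgfbr1, its type I receptor, had -0.68 ± 0.31 under nintedanib (adjusted p = 0.574, limma), and Ltbp2, which encodes a microfibril protein related to the TGF-beta binding proteins, had -0.31 ± 0.29 under nintedanib and 0.65 ± 0.30 under the combination. Without Vehicle 3 Tgfbr1 had -0.40, and Ltbp2 had 0.0025 and 0.96. Mouse reads were 42.4% of both for Tgfbr1 and 42.0% for Ltbp2.

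The 13 collagens under the minimum were the cartilage collagens Col2a1, Col9a1, Col9a2, Col9a3 and Col10a1, the type IV chains Col4a3, Col4a4 and Col4a6, the type VI chains Col6a5 and Col6a6, and Col19a1, Col22a1 and Col28a1. Their means over the 17 tumours ran from 0.196 normalized counts for Col9a1 to 7.97 for Col9a2. Just inside the minimum were Col11a2 at 11.6, Col20a1 at 13.0 and Col6a4 at 15.2.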

How the data were processed

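Bulk polyA RNA of 17 tumours was sequenced as 75-bp paired-end reads (TruSeq v2 libraries, NextSeq500), per the labels' protocols. Bowtie, TopHat, DESeq2, hg19 and mm10 are named per the submitters' processing notes; tool versions, the read counter, annotation and strand setting are not given in the sources used here. Each deposited value is a gene signal in normalized counts, for which the authors scaled reads by 1 factor per library. Whole reads were recovered for 100% of values within 0.01 reads (largest distance 0.00113). In combination 2, 1 read was worth 1.01 normalized counts, so near 1 that its recovery could not be checked by that step alone. On these reads edgeR called 0, 20 and 69 mouse genes for alpelisib, nintedanib and the combination against vehicle.

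After adding 1, log2 values were tested by limma-trend (limma 3.58.1, R 4.3.3) over 11831 mouse genes with a mean of at least 10, with 5 group means and 7 contrasts. P-values were adjusted by Benjamini-Hochberg over all tested genes, with a threshold of 0.05, and fold changes are on the log2(value + 1) scale, which understates changes of low genes. The test was tried on simulated data. Nintedanib's 5 libraries had equal weight. All 17 values are given for collagens that passed, and in each class for the 3 with the highest means and the 3 with the smallest p against vehicle, 13 in all; Col6a4 was added after its values were seen. Of the pathway lists, genes past the threshold and the 2 with the smallest p under nintedanib are named. Other collagens, and Ppib, Pcolce and Thy1, are named after their values were seen. Members and lists were chosen with earlier results of these data known.

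Replicate numbers were not treated as pairs: libraries with the same number correlated above 0.1 in 5 of 29 cases, those with different numbers in 30 of 85. No library copied another. Alternatives were pseudocounts, filters, TMM and other scalings, edgeR 4.0.16, DESeq2 1.42.0, limma-voom, a replicate block, only the compared groups and leaving out each library.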

Additional observations from a re-analysis of the deposited data

Results flagged for a closer look

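Of 120 tests for a single library far from the rest of its group (30 collagens in 4 groups of 4 or 5), 14 found one. For normally distributed values chance gives about 1 in 20, but these tests used normalized counts and not log2 values. All 14 flagged values were on the high side, and the chance rate for such counts was not tested. In 11 of the 14 the library was Vehicle 3, always as the highest of the 4 vehicle tumours. It stood apart with 11978 normalized counts of Col12a1, 1286 of Col15a1, 1320 of Col18a1, 39462 of Col1a1, 153.9 of Col24a1 and 7626 of Col4a1. It also stood apart with 5488 of Col4a2, 121.7 of Col4a5, 6046 of Col5a2, 5093 of Col6a3 and 4276 of Col7a1. The 11 genes come from 1 library and are not independent of each other. The other 3 were single genes: alpelisib 1 with 560.3 of Col17a1, alpelisib 2 with 34.1 of Col6a4 and nintedanib responder 3 with 258.1 of Col27a1, each the highest of its group.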

How the results depend on the processing

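The number of collagens called stayed at 0 in every alternative that could be fitted for alpelisib against vehicle (21), the combination against alpelisib (21) and against nintedanib (22), responders against non-responders (17) and additivity (29). For nintedanib against vehicle it was 0 in 21 of 22, and 2 with DESeq2 (Col4a1 and Col4a2). For the combination it was 0 in 18 of 21, 2 with DESeq2 (Col4a1 and Col4a2), 1 with total scaling (Col4a1, -1.39, adjusted p = 0.0246) and 2 without Vehicle 3 (Col7a1 and Col25a1); leaving out single libraries gave 0 to 2. A replicate block gave 0 in all 7 comparisons and changed no collagen call, but ended those of Cdh5 (adjusted p = 0.0631), Pecam1 (adjusted p = 0.0701) and Krt14 (adjusted p = 0.0733, limma). Of 70 changes followed, which include those printed with an SE against vehicle, 64 kept their sign in all alternatives that gave a value. Col3a1 under the combination turned from 0.25 to -0.036 with total scaling. Leaving out single libraries gave -0.35 to 0.50 for Col1a1 under alpelisib (-0.04, above 0 without alpelisib 1, alpelisib 2 or Vehicle 3) and -0.13 to 0.71 for Col1a1 under nintedanib (0.17, below 0 without responder 2, Vehicle 1 or Vehicle 4), which also turned to -0.14 with edgeR and -0.11 with DESeq2. It gave -0.51 to 0.19 for Col4a5 (-0.21, above 0 without Vehicle 3) and -0.35 to 0.10 for Col11a2 (-0.12, above 0 without combination 3) under the combination, and -0.54 to 0.0025 for Ltbp2 under nintedanib (-0.31, above 0 without Vehicle 3). Scaling by the total without Rn45s and Lars2 shifted the median of all genes by -0.30 in the combination, -0.19 under alpelisib and -0.07 under nintedanib against vehicle. The median of all 30 collagens under the combination then went from 0.27 to -0.02.

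Counts over all mouse genes moved more. Under nintedanib 18 passed, against 93 with DESeq2, 10 with the replicate block, 10 with no filter, 7 with a minimum of 50 and 4 to 26 with a library left out. Under the combination 92 passed (47 higher), against 473 with DESeq2 (293 higher), 307 with total scaling (36 higher), 46 with the block, 47 with no filter, 60 with a minimum of 50, 26 with only the compared groups and 5 to 106 with a library left out. The cause of these moves was not tested. With 2 to 5 libraries a group, 1 of them Vehicle 3, changes of 1 log2 unit in abundant collagens did not pass, so a missing call does not show that a collagen was level. Leave-one-out fits of the non-responders keep 1 library, assumed to vary like the other groups.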

Other observations

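Col17a1, a hemidesmosome collagen, ran from 9.97 normalized counts in combination 4 to 560.3 in alpelisib 1, with vehicle tumours at 22.1, 17.1, 106 and 195. Col8a1, of type VIII collagen, was at 817, 973, 1603 and 578 in vehicle and 1549, 668, 781 and 875 in combination tumours, and these groups overlapped.

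Markers of other host tissues were followed beside the collagens. Summed macrophage markers (7 genes) ran from 4894 to 5684 normalized counts in vehicle, 3477 to 4206 in alpelisib, 3899 to 6276 in nintedanib and 4598 to 5818 in combination tumours. Schwann cell and cartilage lists each had 1 gene with a mean of at least 10. Matn1 and Hapln1 were at 0 in all combination tumours and in all nintedanib responders.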
